A study of Homo sapiens with 7 samples.

Results

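The last 2 hours of a light time course were compared in the established human neuroglioma line H4, with cells that express the light-driven kinase Cry2Olig-PKR (opto-PKR). The 2 libraries set against each other came from cells kept under continuous blue light for 720 min (7918172 transcripts) and for 600 min (8877186 transcripts), out of 7 libraries made at 0, 60, 120, 240, 480, 600 and 720 min. Both carried the same construct and differed, per the labels, only in the length of illumination. Genes were compared if they held 20 or more transcripts in either library, which left 12686 of the 17410 genes listed in at least 1 of them. There was 1 library at each time, so no difference below has a replicate check, no test was possible, and the intervals given (exact binomial, 95%) cover counting error only. Cells without opto-PKR under the same light, and cells kept dark for as long, were not analysed here, so light and time in the plate cannot be told apart. The sources used here do not say whether the line is a single clone.

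PKR, encoded by EIF2AK2, is a kinase that dimerises on double-stranded RNA and phosphorylates the alpha subunit of eIF2. Opto-PKR replaces the RNA by light, since Cry2Olig clusters under blue light and brings the fused kinase together. Phosphorylated eIF2 lowers general translation and favours that of a few messages, among them ATF4, whose product switches on genes for amino acid supply, redox balance and stress signalling: the integrated stress response (ISR). PKR is also known for its links to NF-kB signalling, which turns on cytokine genes together with its own inhibitors.

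Levels are transcript counts scaled to the total of the library (CPM), and a fold is the ratio of the CPM at 720 min to that at 600 min, so a fold under 1 is a lower level at 720 min. At 720 min 101 genes were at least 2-fold higher than at 600 min (0.796% of those compared) and 150 were at least 2-fold lower (1.18%). At 1.5-fold, 522 genes were higher (4.11%) and 882 were lower (6.95%), and the median gene had a log2 ratio of -0.05. Of all 12686 genes 5509 had a ratio above 1 and 7177 one below 1. These shares are the background for every group below. In 251 genes (1.98%) the difference was 2-fold in either direction, but 8 of those held 200 or more transcripts in both libraries, out of 6860 such genes (0.117%). At the count limit the 59 genes whose larger count was 20 had a median log2 ratio of 0.16, and the 73 genes just outside, with a larger count of 19, one of -0.08.

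**Figure D1:**
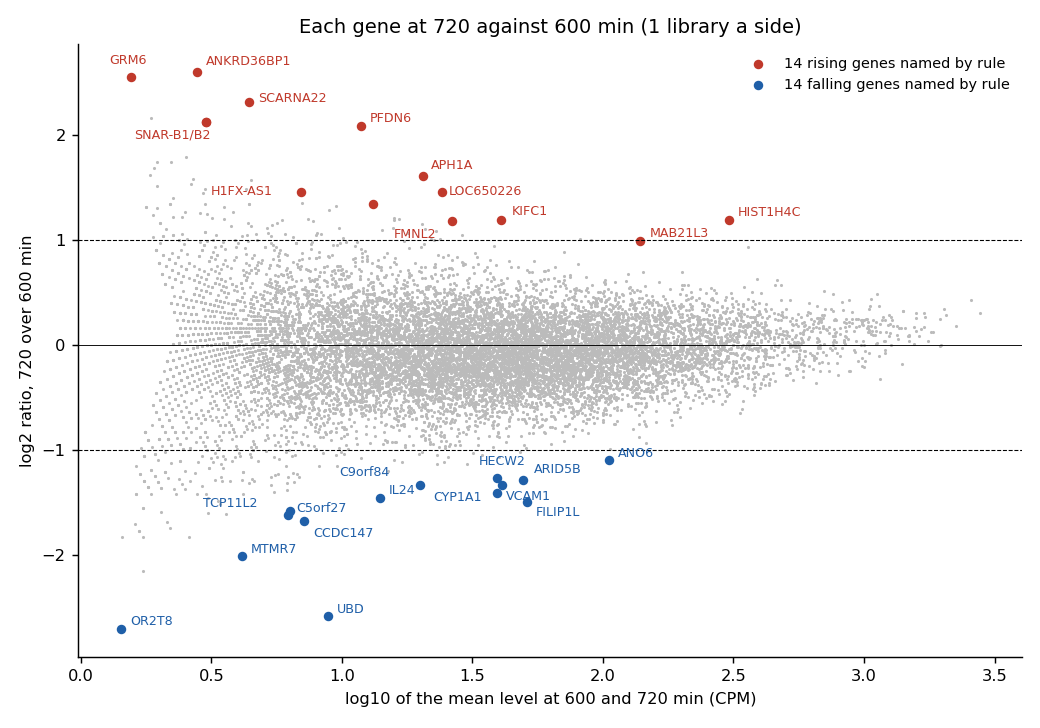
Log2 ratio of the level at 720 min to that at 600 min (vertical axis) against log10 of the mean level in CPM (horizontal axis), 1 grey point for each of the 12686 genes; dashed lines mark 2-fold. The 14 rising (red) and 14 falling (blue) genes whose counting intervals lay farthest from 1 are coloured, all but 1 with a label, with PFDN6 at 2.09 and UBD at -2.59.

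Among the 14 falling genes whose intervals lay farthest from 1 were UBD, VCAM1 and IL24, which had been highest at 240 min. UBD, a ubiquitin-like modifier induced by inflammatory cytokines, stood at 14.7, 10.9, 34.6, 73.1, 15.2 and 2.53 CPM at 0, 60, 120, 240, 600 and 720 min. Its count went from 135 to 20 transcripts, a fold of 0.166 (0.0983 to 0.267), and its 720 min level was the lowest of the 6 libraries with a value. VCAM1, a cell surface molecule that binds leukocyte integrins, peaked at 109 CPM at 240 min and fell from 56.9 to 21.3 CPM in the last step, a fold of 0.375 (0.313 to 0.447). IL24, a cytokine of the IL-10 family, fell from 20.5 to 7.45 CPM (fold 0.363, 0.266 to 0.490), after 2.12 CPM at 0 min and 41.4 CPM at 240 min. Unlike UBD and VCAM1, IL24 was still above its unlit level at 720 min. Genes named after NME1-NME2 in the alphabet, such as UBD and VCAM1, have no value at 480 min, because the table of that library ends there.

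The NF-kB feedback list holds the subunits of the factor, its inhibitors and the targets that restrain it. Of its 14 members compared, 6 were at least 1.5-fold lower and 1 was at least 1.5-fold higher, and the list median was -0.46 against -0.05 for all genes. TNFAIP3, a ubiquitin-editing enzyme that dampens NF-kB signalling, came down from 85.5 CPM at 240 min, with 10.4 and 5.30 CPM in the last 2 libraries (fold 0.512, 0.347 to 0.745), so that it ended below its 6.47 CPM at 0 min. BIRC3, an inhibitor of apoptosis and NF-kB target, peaked at 292 CPM at 240 min and fell from 99.7 to 54.6 CPM (fold 0.547, 0.487 to 0.615). NFKBIE, an inhibitor that holds the factor in the cytoplasm, fell from 26.0 to 14.3 CPM (fold 0.548, 0.434 to 0.690). The subunit gene NFKB1 fell from 79.2 to 49.4 CPM (fold 0.624, 0.550 to 0.707). The other members past 1.5-fold were the subunit gene RELB at 22.8 and 14.8 CPM (fold 0.649, 0.513 to 0.819) and TRAF1, a signalling adaptor, at 5.97 and 3.16 CPM (fold 0.529, 0.315 to 0.866). REL, another subunit gene, went the other way, from 40 to 70 transcripts (fold 1.96, 1.31 to 2.97). NFKBIA, the best known inhibitor of the pathway, was at 23.4 and 30.3 CPM (fold 1.29, 1.07 to 1.57), far below its 101 CPM at 120 min.

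Cytokine genes did not move as a block. Of 14 compared, 5 were at least 1.5-fold lower and 2 at least 1.5-fold higher, with a list median of -0.29. CCL20, a chemokine for lymphocytes and dendritic cells, fell from 36 to 9 transcripts (fold 0.280, 0.119 to 0.593) after a peak of 21.7 CPM at 240 min. LIF, a cytokine of the IL-6 family, fell from 27.8 to 15.9 CPM (fold 0.572, 0.458 to 0.712), below the 17.6 CPM of the unlit cells. IL11, of the same family, fell from 57 to 21 transcripts (fold 0.413, 0.238 to 0.692), and IL1A went from 23.1 to 14.8 CPM (fold 0.640). In contrast, IL32 stood at 11.5, 10.4, 17.6, 46.5, 31.6, 57.9 and 91.7 CPM over the 7 times and rose 1.58-fold (1.41 to 1.78) in the last step, to its highest level. CCL5, a chemokine for T cells, rose from 21.2 to 36.6 CPM (fold 1.73, 1.43 to 2.09), which brought it near its 41.3 CPM at 0 min. CXCL2 and CXCL3, neutrophil chemokines, held their high levels, with folds of 1.04 (0.975 to 1.11) and 1.03 (0.884 to 1.19), and IL6 was at 66.0 and 53.3 CPM (fold 0.807).

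Promoter sequences are shown for 4 of these falling genes, because their upstream regions hold an NF-kB type motif. They are RefSeq sequences of build GRCh38.p14 and run from 250 bases before to 50 bases after the annotated start, 5′ to 3′ on the gene's strand. UBD is chr6:29559683-29559982, minus strand; TNFAIP3 is chr6:137867009-137867308, plus strand. BIRC3 is chr11:102317234-102317533, plus strand; CCL20 is chr2:227813592-227813891, plus strand. Capitals mark matches to the motif, which is GGG, any pair of bases and TTTCC, on either strand.
UBD: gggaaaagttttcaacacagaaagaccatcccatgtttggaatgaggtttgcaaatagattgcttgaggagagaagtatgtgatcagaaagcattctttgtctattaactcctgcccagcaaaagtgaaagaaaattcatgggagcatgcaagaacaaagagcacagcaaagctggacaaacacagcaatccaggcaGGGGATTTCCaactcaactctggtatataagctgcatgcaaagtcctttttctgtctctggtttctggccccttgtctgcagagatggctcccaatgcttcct
TNFAIP3: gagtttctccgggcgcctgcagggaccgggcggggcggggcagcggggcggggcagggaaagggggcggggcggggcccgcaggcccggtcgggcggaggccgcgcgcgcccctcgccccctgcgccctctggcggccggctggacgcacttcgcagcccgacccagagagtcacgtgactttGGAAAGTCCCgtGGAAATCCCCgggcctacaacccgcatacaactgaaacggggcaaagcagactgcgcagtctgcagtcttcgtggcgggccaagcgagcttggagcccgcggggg
BIRC3: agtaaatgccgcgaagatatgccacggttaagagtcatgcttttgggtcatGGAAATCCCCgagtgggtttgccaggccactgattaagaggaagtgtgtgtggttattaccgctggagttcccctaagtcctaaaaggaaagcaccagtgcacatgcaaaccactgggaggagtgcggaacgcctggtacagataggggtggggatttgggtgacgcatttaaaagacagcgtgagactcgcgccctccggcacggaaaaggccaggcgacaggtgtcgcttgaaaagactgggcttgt
CCL20: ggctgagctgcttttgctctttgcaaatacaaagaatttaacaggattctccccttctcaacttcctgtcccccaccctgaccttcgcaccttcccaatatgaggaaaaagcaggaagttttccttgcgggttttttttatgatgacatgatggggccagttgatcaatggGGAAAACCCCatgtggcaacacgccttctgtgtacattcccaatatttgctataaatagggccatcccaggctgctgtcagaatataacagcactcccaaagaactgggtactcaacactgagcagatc
TNFAIP3 held 2 matches, which began at -67 and -55 from the start, and the others held 1, at -53 in UBD, -199 in BIRC3 and -79 in CCL20. The motif and these genes were chosen after their values were seen, and the genes were picked for their matches. How many of the other falling genes named above hold no match is not given here. Of all 35116 promoters, 1.91% held the motif, and of the 13578 promoters of the genes compared 2.08% did. It was in 2.03% of the 1084 promoters of genes at least 1.5-fold lower and 2.89% of the 415 promoters of genes at least 1.5-fold higher. A match says that these letters are present, not that a factor was bound there.

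The other leading falls came from several pathways, and most followed a peak in the middle of the time course. Of the 14 falling genes, 12 had their highest level at 240 or 480 min. They were picked for a low 720 min level, which disfavours a peak there, and the same count over all genes is not given here. When only 0, 60, 120 and 240 min are ranked, 4536 of all 12686 genes compared were highest at 240 min. At 720 min 8 of the 14 were still above their 0 min level and 6 were below it. CYP1A1, an oxidising enzyme and the standard target of the aryl hydrocarbon receptor, stood at 8.70, 20.6, 36.1, 93.7, 105, 58.8 and 23.4 CPM, and its last step was a fold of 0.397 (0.334 to 0.471). Of the 10 genes on the list of this receptor, 8 had an interval below 1, against 26.2% of all genes, and 2 were at least 1.5-fold lower. AHR, the receptor itself, fell from 412 to 270 CPM (fold 0.655, 0.620 to 0.691). ARID5B, a chromatin regulator, peaked at 325 CPM at 240 min and fell from 70.1 to 28.7 CPM (fold 0.409, 0.350 to 0.477), against 71.6 CPM at 0 min. FILIP1L fell from 75.5 to 26.8 CPM (fold 0.355, 0.303 to 0.415), also from a peak at 240 min, of 262 CPM. ANO6, a membrane phospholipid scramblase, had the deepest counts of this group, at 1280 and 533 transcripts (fold 0.467, 0.421 to 0.517). HECW2, a ubiquitin ligase, peaked at 80.2 CPM at 480 min and went from 55.4 to 23.0 CPM (fold 0.415, 0.348 to 0.493). MTMR7, CCDC147, TCP11L2, C5orf27, C9orf84 and OR2T8 made up the rest, with 3 to 90 transcripts at 720 min and folds from 0.153 (OR2T8, 22 and 3 transcripts) to 0.397 (C9orf84).

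**Figure D2:**
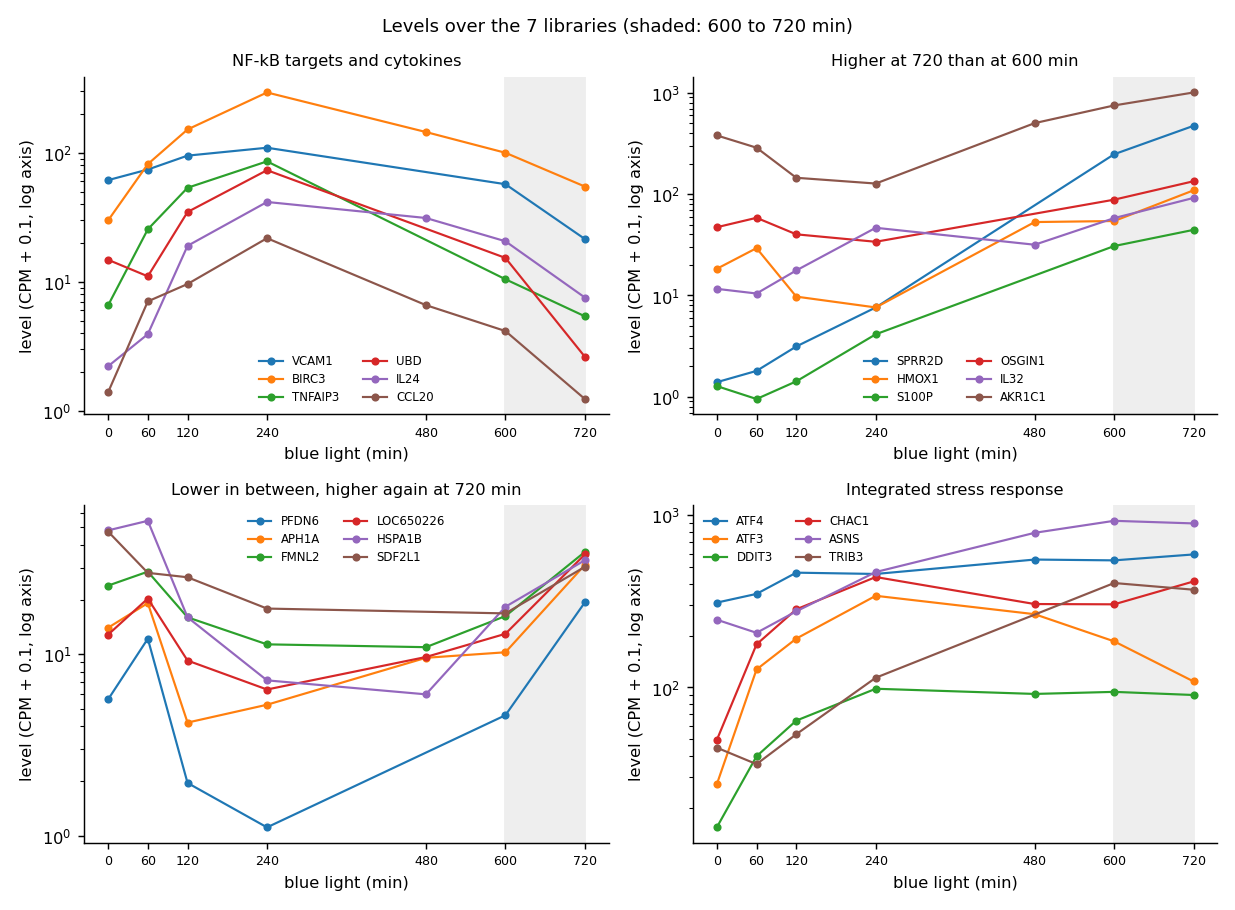
Levels in CPM (0.1 added, log axis) against minutes of blue light for 6 genes in each of 4 panels, 1 library per point; the step from 600 to 720 min is shaded and points at 480 min are missing for genes after the end of that table. VCAM1, BIRC3, TNFAIP3, UBD, IL24 and CCL20 come down from 240 min to 720 min, whereas SPRR2D and HMOX1 climb to 472 and 109 CPM.

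Some of the rises followed lower levels in the middle libraries, some were in genes nearly silent until late, and others did neither. Of the 14 rising genes whose intervals lay farthest from 1, 5 had their lowest level at 120 or 240 min, 7 had their highest at 720 min and 10 ended above their 0 min level. They were picked for a high 720 min level, which favours the last 2 of these counts. The same counts over all genes are not given here, so they describe these 14 only. PFDN6, a subunit of prefoldin, which hands new proteins to the cytosolic chaperonin, stood at 5.53, 12.1, 1.85, 1.01, 4.51 and 19.2 CPM at 0, 60, 120, 240, 600 and 720 min. Its count rose from 40 to 152, a fold of 4.26 (2.99 to 6.20). APH1A, a subunit of gamma-secretase, followed the same course, with 13.9, 19.0, 4.10, 5.16, 9.45, 10.1 and 30.9 CPM over the 7 times and a fold of 3.05 (2.39 to 3.93). FMNL2, a formin that elongates actin filaments, rose from 16.1 to 36.5 CPM (fold 2.27, 1.85 to 2.79) after 10.8 CPM at 480 min. In each of these genes the 60 min library was also above the 0 min library. The uncharacterised LOC650226 rose from 12.8 to 35.4 CPM (fold 2.75, 2.21 to 3.45). The libraries at 0, 60 and 720 min also had the lowest shares of reads mapped with a barcode. These were 51.6%, 49.8% and 50.7%, against 53.9% to 54.7% at 120, 240, 480 and 600 min. The part of this library difference in such courses was not tested.

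Genes tied to chromosome duplication and division were among the rises, but their wider lists did not share the direction. HIST1H4C, one of the genes for histone H4, rose from 1638 to 3345 transcripts, or 185 to 422 CPM (fold 2.29, 2.16 to 2.43), which was within its earlier range of 258 to 654 CPM at 0 to 240 min. KIFC1, a minus-end kinesin that bundles spindle microtubules, rose from 24.8 to 56.6 CPM (fold 2.28, 1.94 to 2.70), and AURKB, the kinase of the chromosomal passenger complex, from 53.1 to 81.0 CPM (fold 1.53, 1.35 to 1.72). GINS1, part of the replicative helicase, rose from 15.1 to 25.3 CPM (fold 1.67, 1.34 to 2.10), while CDC45, its partner in the same helicase, fell from 18.4 to 12.1 CPM (fold 0.660, 0.508 to 0.855). Of 24 replication genes 1 passed 1.5-fold in each direction and the median was -0.19. Of 23 mitosis genes AURKB alone passed and the median was -0.08. The polyadenylated histone genes, compared separately, had 0 of 13 higher and 1 lower, HIST1H2AC, whose interval of 0.164 to 1.00 rests on 21 and 8 transcripts.

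Small and noncoding RNAs made up part of the rising group at low counts. SCARNA22, a small RNA of Cajal bodies, rose from 13 to 58 transcripts (fold 5.00, 2.71 to 9.95). SNAR-B1 and SNAR-B2 are identical in their values, at 10 and 39 transcripts, and their copies cannot be told apart in these counts. ANKRD36BP1, a pseudogene, went from 7 to 38 transcripts (fold 6.09, 2.69 to 16.2) and H1FX-AS1 from 33 to 81 (fold 2.75, 1.81 to 4.26). H1FX-AS1 is named as antisense to the histone gene H1FX, which was at 249 and 268 CPM. The sources used here do not say how strand was treated in counting, and reads of the pair may not be separable. GRM6, a glutamate receptor gene, rests on 4 and 21 transcripts.

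SPRR2D, nearly silent in the early libraries, was still climbing at the end of illumination. SPRR2D encodes a small proline-rich protein of the cornified envelope of keratinocytes, and it stood at 1.29, 1.70, 3.04, 7.52, 247 and 472 CPM at 0, 60, 120, 240, 600 and 720 min. Its last step was 1.91-fold (1.81 to 2.01) in transcripts and 2.18-fold in reads. All 6 members of its family with enough counts (SPRR2A to SPRR2F) were at least 1.5-fold higher, 5 of them with an interval above 1. SPRR2A was at 0 in the 4 libraries up to 240 min, then at 12 and 31 transcripts (fold 2.90, 1.45 to 6.19), and SPRR2F likewise, then at 19 and 39 (fold 2.30, 1.30 to 4.22). SPRR2E was at 16 and 23 transcripts (fold 1.61, 0.815 to 3.26), and SPRR2G at 0 and 4, too few to compare. The family consists of near-identical copies, so reads of the abundant SPRR2D may be counted under its neighbours and the 6 genes may not be separate observations. MAB21L3, not silent at any time, rose from 93.0 to 185 CPM (fold 1.99, 1.83 to 2.17). It started from the lowest level of its course and stayed below the 273 CPM of the unlit cells.

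Promoters of SPRR2A and SPRR2F are shown because both hold the AP-1 motif TGACTCA (or TGAGTCA on the other strand), in capitals, at -197 and -196 from their starts. The sequences are from RefSeq, GRCh38.p14, chr1:153057463-153057762, minus strand, and chr1:153113467-153113766, minus strand.
SPRR2A: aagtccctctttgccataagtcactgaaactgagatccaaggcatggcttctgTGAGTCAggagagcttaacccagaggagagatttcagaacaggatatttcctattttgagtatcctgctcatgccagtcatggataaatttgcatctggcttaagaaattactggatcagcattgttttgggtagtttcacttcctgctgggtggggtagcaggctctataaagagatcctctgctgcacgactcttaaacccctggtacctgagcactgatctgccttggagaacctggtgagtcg
SPRR2F: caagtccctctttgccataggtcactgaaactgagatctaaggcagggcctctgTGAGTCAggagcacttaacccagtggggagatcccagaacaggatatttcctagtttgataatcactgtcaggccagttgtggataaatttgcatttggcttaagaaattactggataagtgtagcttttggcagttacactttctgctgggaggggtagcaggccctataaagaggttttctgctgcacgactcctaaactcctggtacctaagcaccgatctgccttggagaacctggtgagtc
Among all promoters 4.95% held this motif, among those of the genes compared 3.56%, and it was in 4.58% of those of genes at least 1.5-fold higher and 4.61% of those at least 1.5-fold lower. Both promoters were picked for their matches. Whether those of SPRR2D and the other family members hold the motif is not given here.

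Outside the SPRR2 family no late epithelial-type gene compared was at least 1.5-fold higher. Of all 18 on the list, 11 had a ratio above 1, against 5509 of all 12686 genes. An interval wholly above 1 was found in 6, against 17.8% of all genes. This list was drawn from earlier results of these libraries, so its direction is not independent evidence; of 18 members compared 4 were at least 1.5-fold higher, all of the SPRR2 family, and 2 lower. ESRP1, an epithelial splicing factor, had reached 59.1 CPM at 480 min and stayed at 57.1 and 54.7 CPM (fold 0.957, 0.840 to 1.09). KRT17, an epithelial keratin, was at 113 and 123 CPM (fold 1.09, 0.995 to 1.19). S100P, a small calcium-binding protein, was at 30.6 and 44.3 CPM (fold 1.45, 1.23 to 1.70), just short of 1.5-fold. CLDN1, a tight junction protein, fell from 74 to 42 transcripts (fold 0.636, 0.425 to 0.942).

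The core ISR genes held most of their level through the last step. Of 20 ISR regulators 0 were at least 1.5-fold higher and 2 at least 1.5-fold lower, with a median of -0.03. ATF4 was at 547 and 592 CPM (fold 1.08, 1.04 to 1.13). DDIT3, which encodes the pro-apoptotic factor CHOP, was at 94.2 and 90.3 CPM (fold 0.959, 0.867 to 1.06), and TRIB3, a pseudokinase that restrains ATF4, at 404 and 370 CPM (fold 0.914, 0.870 to 0.960). CHAC1, an enzyme that breaks down glutathione, was at 304 and 413 CPM (fold 1.36, 1.29 to 1.43), which returned it towards its 438 CPM at 240 min. PPP1R15A, the stress-induced subunit of the eIF2 phosphatase, was at 289 and 325 CPM (fold 1.12, 1.06 to 1.19). The secreted factors GDF15 and FGF21 had folds of 1.12 (1.09 to 1.16) and 0.995 (0.679 to 1.45), the latter from 62 and 55 transcripts.

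ATF3 was the clear exception among them. This early transcription factor of the response stood at 27.3, 127, 192, 341, 266, 185 and 108 CPM, and its last step was a fold of 0.584 (0.537 to 0.635). CREBRF, a regulator of the CREB3 family, fell from 20.3 to 13.4 CPM (fold 0.660, 0.514 to 0.844), again from a peak at 240 min. INHBE, a secreted activin subunit, was at 75.2 and 54.9 CPM (fold 0.730, 0.646 to 0.825), and SESN2, a leucine sensor, at 167 and 148 CPM (fold 0.888). Neither INHBE nor SESN2 passed 1.5-fold, although both intervals lay below 1. EIF2AK2 was at 121 and 124 CPM (fold 1.02, 0.935 to 1.11), and whether transcripts of the construct were counted under it was not tested.

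The promoter of CHAC1 carries a match to the C/EBP-ATF response element TGATGNAAN, bound by ATF4 in many ISR genes, in capitals below and on the other strand, at -210 from the start (RefSeq, GRCh38.p14, chr15:40953221-40953520, plus strand).
CHAC1: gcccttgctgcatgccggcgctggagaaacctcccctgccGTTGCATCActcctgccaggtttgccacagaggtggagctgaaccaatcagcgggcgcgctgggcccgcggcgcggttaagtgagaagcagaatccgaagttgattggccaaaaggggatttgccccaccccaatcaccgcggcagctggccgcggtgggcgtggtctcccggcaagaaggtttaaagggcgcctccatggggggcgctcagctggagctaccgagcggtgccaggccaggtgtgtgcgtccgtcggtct
This element was in 3.61% of all promoters, in 2.13% of those of the genes compared, in 1.45% of those of genes at least 1.5-fold higher and in 4.34% of those at least 1.5-fold lower. Matches in the other core ISR genes are not given here.

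Effector genes downstream of ATF4 also stayed within 1.5-fold. Among 22 genes of amino acid synthesis and transport and 20 cytosolic tRNA synthetases none was past 1.5-fold, with medians of -0.07 and -0.14. ASNS, which makes asparagine, was at 929 and 897 CPM (fold 0.966, 0.935 to 0.997), or a fold of 0.870 in reads, and its count is close to the limit of the molecular tags. PHGDH, the first enzyme of serine synthesis, was at 264 and 359 CPM (fold 1.36, 1.29 to 1.44), and SLC38A2, an amino acid importer, at 369 and 283 CPM (fold 0.765, 0.725 to 0.808). IARS, the isoleucyl-tRNA synthetase, was at 240 and 175 CPM (fold 0.730, 0.682 to 0.781).

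In the endoplasmic reticulum, HSPA5, its main chaperone, was at 793 and 915 CPM (fold 1.15, 1.12 to 1.19), above its 386 CPM at 240 min. SDF2L1, part of its chaperone complex, was the single member of 18 ER folding genes past 1.5-fold, from 16.7 to 30.2 CPM (fold 1.81, 1.47 to 2.24). Genes of XBP1 signalling and ER-associated degradation had 0 of 17 past 1.5-fold and a median of 0.01.

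**Figure D3:**
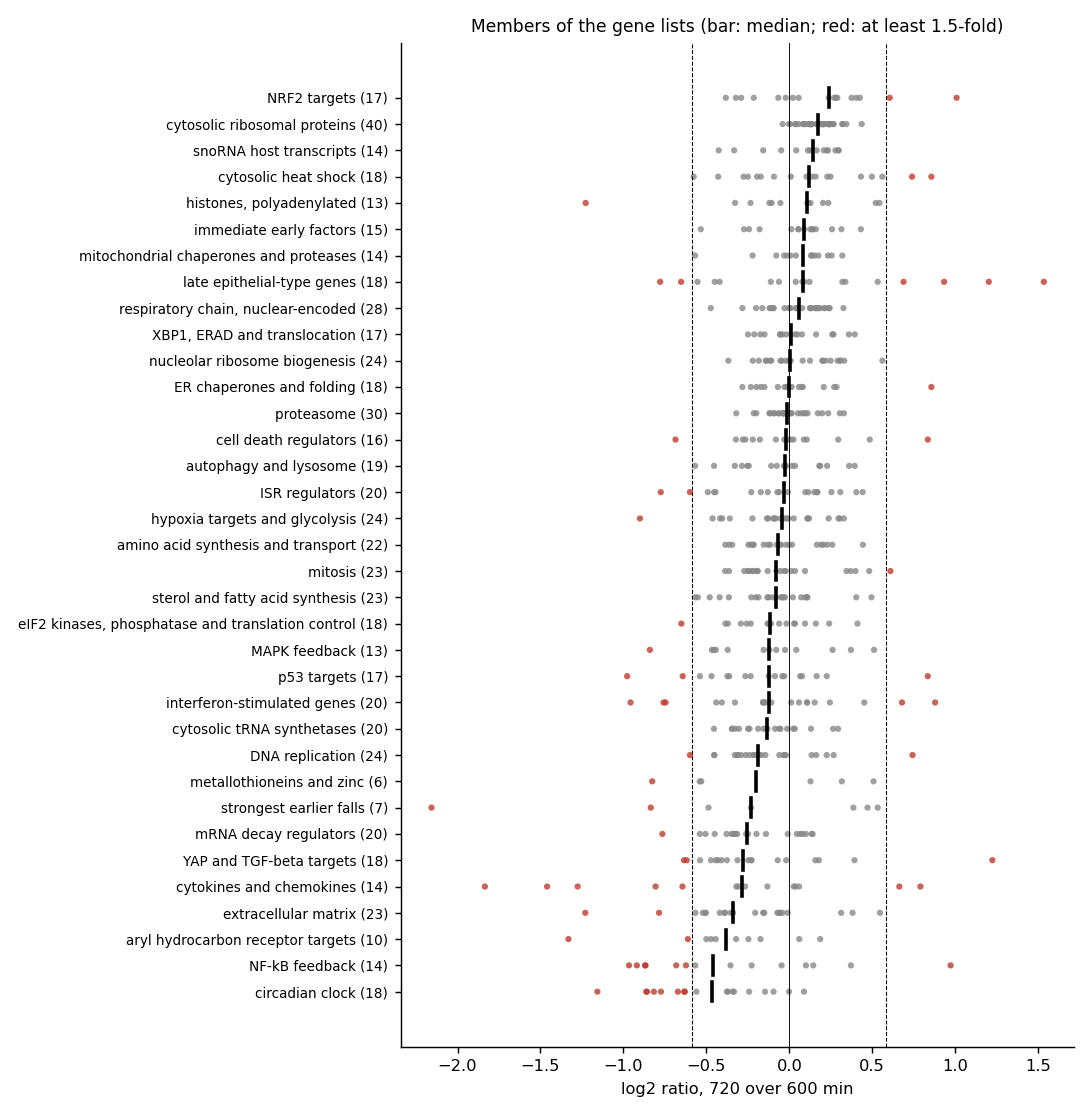
Log2 ratio of 720 to 600 min for every compared member of the 35 gene lists (number compared in brackets), ordered by list median (black bar); red points are at least 1.5-fold, the dashed lines. NRF2 targets have the highest median at 0.24 and the circadian clock the lowest at -0.47.

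Antioxidant and heat shock genes were more often above than below their 600 min level. The 17 NRF2 targets, genes of antioxidant defence, had a median of 0.24, with 2 at least 1.5-fold higher and 0 lower. A ratio above 1 was found in 11, against 5509 of all 12686 genes. Intervals lay wholly above 1 in 10 and below it in 4, against 17.8% and 26.2% of all genes. In 4 of the 17 at least 1 library held over 3800 molecular tags, where counts are imprecise. HMOX1, the haem-degrading enzyme, stood at 18.2, 29.2, 9.64, 7.52, 52.9, 54.2 and 109 CPM and rose 2.01-fold (1.80 to 2.25) in the last step, to its highest level. OSGIN1, a growth inhibitor induced by oxidative stress, rose from 88.1 to 134 CPM (fold 1.52, 1.39 to 1.67). AKR1C1, a carbonyl reductase, was at 750 and 1008 CPM (fold 1.34, 1.30 to 1.39). The glutathione synthesis gene GCLC did not share this, at 183 and 140 CPM (fold 0.767, 0.710 to 0.828). Of 18 cytosolic heat shock genes 2 were at least 1.5-fold higher and 0 lower, with a median of 0.12. Their ratios were above 1 in 11 and below 1 in 7. Their intervals were divided, with 8 wholly above 1 and 7 wholly below it. HSPA1B, the inducible HSP70, stood at 48.0, 54.2, 15.9, 7.07, 5.90, 18.1 and 32.8 CPM, and AHSA1, an activator of HSP90, rose from 49.0 to 81.8 CPM (folds 1.81, 1.48 to 2.22, and 1.67, 1.48 to 1.89). HSPA1A, a near-identical copy of HSPA1B, was at 22.3 and 26.1 CPM, so the split between the copies is uncertain. BAX, a p53 target that opens the mitochondrial outer membrane, rose from 19.8 to 35.4 CPM (fold 1.78, 1.47 to 2.17), while FAS, a death receptor of the same list, fell from 50.2 to 25.5 CPM (fold 0.508, 0.428 to 0.601).

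Small uniform differences appeared in the ribosomal proteins. Of 40 genes, 0 were past 1.5-fold, yet 38 had a ratio above 1, against 5509 of all 12686 genes. An interval wholly above 1 was found in 36, against 17.8% of all genes, and the median was 0.17. RPSA had the lowest ratio, at 395 and 384 CPM (fold 0.972, 0.926 to 1.02). Counts this deep give narrow intervals, so the share of intervals above 1 is not directly comparable with that of all genes. In 9 of the 40 at least 1 library held over 3800 molecular tags, where counts are imprecise and intervals too narrow. Pseudogene copies also make single ribosomal protein genes uncertain.

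Most clock genes were lower. Of 18 compared, 17 had a ratio below 1, against 7177 of all 12686 genes. At least 1.5-fold lower were 8, and 0 were higher. An interval wholly below 1 was found in 13, against 26.2% of all genes. NR1D1, the repressor REV-ERB alpha, was at 90.7 CPM at 240 min and fell from 25.8 to 14.6 CPM (fold 0.568, 0.450 to 0.713). BHLHE41, a repressor known as DEC2, fell from 11.3 to 5.05 CPM (fold 0.448, 0.303 to 0.653), and PER3, a period protein, from 30.5 to 16.8 CPM (fold 0.550, 0.444 to 0.680). CRY1, a cryptochrome repressor, was at 36.6 and 23.0 CPM (fold 0.628), whereas CRY2 was at 6.53 and 6.95 CPM (fold 1.06, 0.722 to 1.56). The activators CLOCK and ARNTL were at 127 and 119 CPM and at 37.2 and 33.6 CPM, both with intervals that include 1. The promoter of BHLHE41 is shown for its E-box CACGTG, the letters that CLOCK and ARNTL recognise, in capitals at -48 from the start (RefSeq, GRCh38.p14, chr12:26124988-26125287, minus strand).
BHLHE41: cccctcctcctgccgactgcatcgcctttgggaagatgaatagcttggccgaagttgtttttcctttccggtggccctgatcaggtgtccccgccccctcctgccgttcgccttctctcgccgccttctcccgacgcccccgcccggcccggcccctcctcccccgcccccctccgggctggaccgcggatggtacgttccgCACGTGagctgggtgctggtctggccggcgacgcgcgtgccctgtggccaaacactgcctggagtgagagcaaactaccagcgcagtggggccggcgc
The E-box was in 7.26% of all promoters and 9.35% of those of the genes compared, which is above both its 8.49% in genes at least 1.5-fold lower and its 7.71% in genes at least 1.5-fold higher. BHLHE41 was picked for its match, and matches in the other clock genes are not given here.

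Genes of matrix and cell contact were lower by smaller amounts. Among 23 matrix genes the median was -0.34, 2 were at least 1.5-fold lower and 0 higher. An interval below 1 was found in 14 of them, against 26.2% of all genes, and 1 above it in 3, against 17.8%. LAMA4, a laminin chain, fell from 71 to 27 transcripts (fold 0.426, 0.263 to 0.673) and FBN1, the fibrillin of elastic microfibrils, from 114 to 59 (fold 0.580, 0.416 to 0.801). COL3A1, a fibrillar collagen, held 1104 and 665 transcripts (fold 0.675, 0.612 to 0.744), or 124 CPM at 600 min, against 404 CPM at 0 min. Among 18 targets of YAP and TGF-beta the median was -0.28. CTGF, a matricellular protein, fell from 41.7 to 27.2 CPM (fold 0.651, 0.548 to 0.773), and AJUBA, a LIM-domain scaffold, from 97.7 to 62.9 CPM (fold 0.644, 0.576 to 0.720). ANKRD1, a classical YAP target, opposed them with 12 and 25 transcripts (fold 2.34, 1.13 to 5.10).

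What a gene had done in the first 240 min was related to its last step. The comparison of 240 with 0 min shares no library with that of 720 with 600 min. Of the 12903 genes it covered, 1452 were at least 2-fold higher at 240 min (11.3%) and 910 at least 2-fold lower (7.05%). Of the early risers, 1366 could be followed to the end: their median log2 ratio in the last step was -0.32, and 296 of them (21.7%) were at least 1.5-fold lower, against 12 (0.878%) at least 1.5-fold higher. The 783 early fallers showed the reverse, with a median of 0.28, 178 (22.7%) at least 1.5-fold higher and 19 (2.43%) lower. The remaining 10328 genes had a median of -0.04. Across 12477 genes Spearman's rho between the 2 log2 ratios was -0.455, and -0.488 over the 6414 genes with 200 or more transcripts in all 4 libraries. Genes are not independent replicates, and each ratio rests on a single pair of libraries. The share of reads that mapped with a barcode was 51.6% at 0 min and 54.7% at 240 min. It was 53.9% at 600 min and 50.7% at 720 min, so it differed in opposite directions in the 2 comparisons. The part of such library differences in this relation was not tested.

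**Figure D4:**
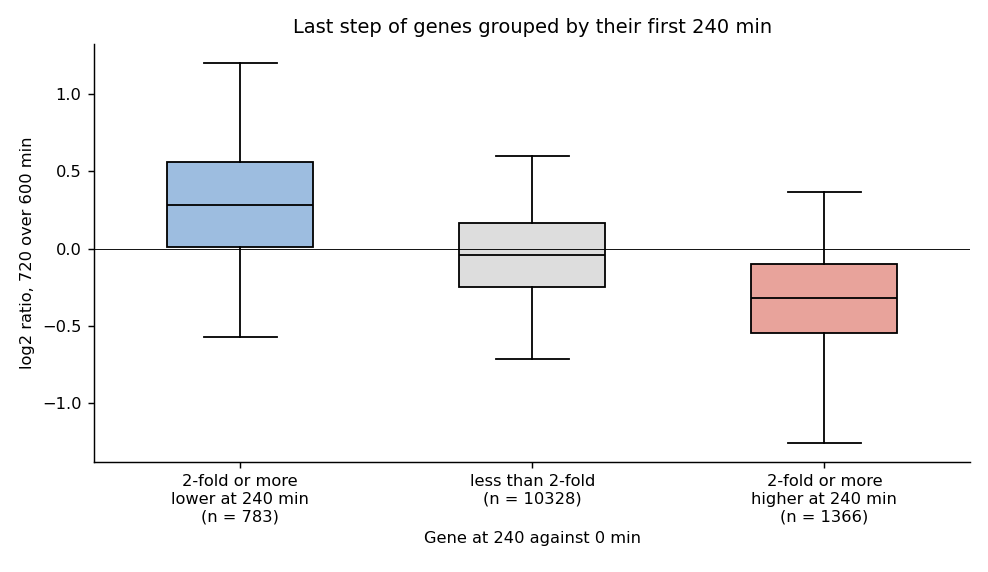
Log2 ratio of 720 to 600 min (vertical axis) for genes grouped by their change from 0 to 240 min; boxes show the median and quartiles and whiskers the central 95% of genes. Medians are 0.28 for early fallers, -0.04 for genes that changed less than 2-fold and -0.32 for early risers.

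The step from 240 to 480 min gave other values. It could be read only for genes that the incomplete 480 min table covers, of which 165 of 7206 were at least 2-fold higher (2.29%) and 276 at least 2-fold lower (3.83%). The 154 risers of that step that were also compared at the end had a median of -0.00 in the last step, with 15 at least 1.5-fold higher and 18 lower. The 202 fallers had a median of -0.25, with 6 higher and 39 lower. Measured from 0 to 480 min, 677 of 7292 genes were at least 2-fold higher (9.28%) and 607 at least 2-fold lower (8.32%). In the last step the risers compared (651 genes) had a median of -0.32 and the fallers (496 genes) one of 0.24.

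A few genes repeated their early direction in the last step. Most of those that rose again were lower at 600 than at 240 min, and most that fell again were higher. The 600 min library enters both the choice of these genes and this comparison, so the choice itself favours such a turn. How many of all early risers or fallers turned by 600 min is not given here. The 12 early risers at least 1.5-fold higher at 720 min included SPRR2D, IL32, REL and ANKRD1, described above, and ZCCHC2, which had reached 17.6 CPM by 240 min and stood at 11.6 and 24.4 CPM in the last 2 libraries (fold 2.10, 1.65 to 2.69). The others were AUNIP, HDAC10, RAB12, RPL32P3, TMEM159, ZNF2 and ZNF34, and for ZNF2 and ZNF34 the interval included 1. All but SPRR2D and IL32, 10 of the 12, were lower at 600 than at 240 min, among them ANKRD1 (9.09 to 1.35 CPM) and AUNIP (17.8 to 6.31 CPM). Of the 19 early fallers that were lower again, 15 had been higher at 600 than at 240 min, and 8 had an interval below 1 in the last step. They included CSNK1A1L, a casein kinase paralogue (68 and 24 transcripts), LFNG, which modifies Notch receptors (72 and 41), and NR1H3, the liver X receptor alpha (23 and 6). None of the 19 held more than 45 transcripts at 720 min, and LFNG had climbed back to 8.11 CPM at 600 min before it fell to 5.18 CPM.

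Genes with a long genomic span were more often lower. Spans came from GENCODE 29 by gene symbol, for 11678 of the genes compared (92.1%). In 5 groups of equal size, from the shortest to the longest spans, the median log2 ratio went through 0.11, 0.01, -0.07 and -0.14 to -0.22, and the share of genes at least 1.5-fold lower rose from 3.60% to 14.4%. Span had a rho of -0.314 with the last step and of 0.216 with the change from 0 to 240 min. Within each of these groups the rho between the early and the last step was still -0.362 to -0.448. The share of reads that mapped with a barcode was 53.9% at 600 min and 50.7% at 720 min, and reads per molecule were 2.37 and 2.38. The part of RNA quality or library preparation in the pattern with span was not tested.

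**Figure D5:**
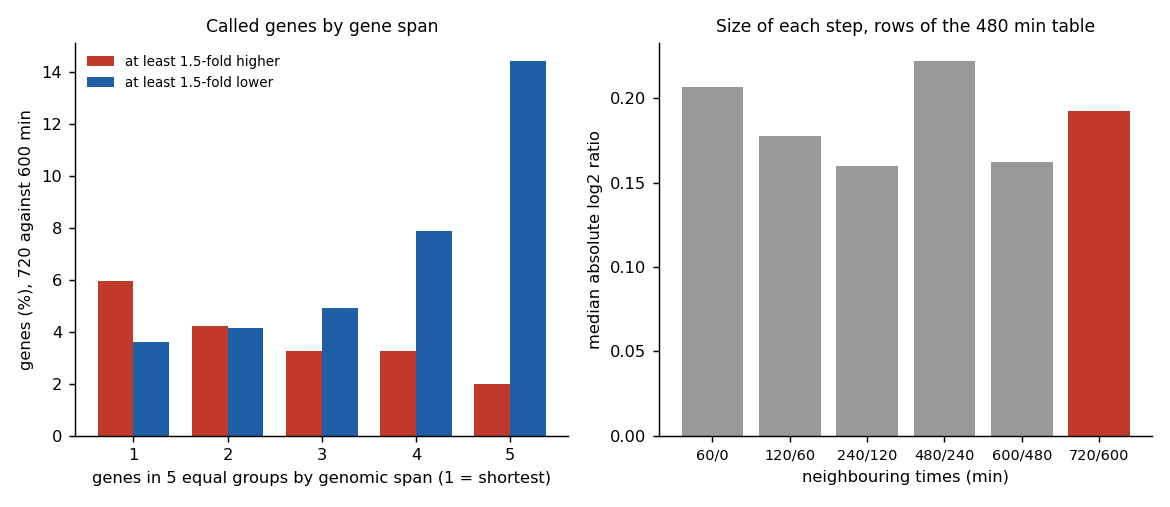
Left: percent of genes at least 1.5-fold higher (red) or lower (blue) at 720 than at 600 min in 5 groups of equal size by genomic span, from the shortest (1) to the longest (5). Right: median absolute log2 ratio of each pair of neighbouring times over genes that the 480 min table covers and with 200 or more transcripts in both libraries; the last step (red, 0.19) lies between the smallest (0.16) and the largest (0.22).

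In size the last step was like the earlier ones for the typical gene, with fewer genes past 2-fold than in the steps up to 240 min. Over genes with 200 or more transcripts in both libraries the median absolute log2 ratio was 0.19, against 0.21 from 0 to 60 min and 0.16 from 120 to 240 min. Past 2-fold were 0.117% of genes, against 1.18% in the first 60 min, 0.402% from 60 to 120 min and 0.459% from 120 to 240 min. Among genes that the 480 min table covers, the share was 2.54% from 240 to 480 min and 0.123% from 480 to 600 min. In the last step it was 0.186% of those genes, so the step before it had no larger share. Neighbouring steps share a library and last from 1 to 4 hours, so their sizes are given side by side only. The central 95% of these genes had log2 ratios from -0.61 to 0.48.

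The label of the cells was checked against marker genes. Of 13 glial markers 6 had 20 or more transcripts at 600 min (OLIG2, SOX2, SOX9, SLC1A3, VIM and CD44). GFAP, S100B and FABP7 were not listed, and SOX10, AQP4, ALDH1L1 and NES held from 0 to 3 transcripts in the 2 libraries. The summed level of the glial markers was 1420 CPM at 600 min and 1226 CPM at 720 min, most of it VIM (732 and 652 CPM) and CD44 (595 and 473 CPM), which other cell types express too. SOX2, a factor of neural progenitors, went against the sum, at 15.7 and 26.1 CPM. Neuronal markers summed to 140 and 143 CPM and were nearly all SYT1, a synaptic vesicle protein (88.0 and 80.2 CPM), and MAP2, a microtubule-associated protein of dendrites (50.1 and 62.1 CPM, against 8.59 CPM at 0 min). Epithelial markers summed to 193 and 196 CPM, nearly all KRT8 and KRT18, with EPCAM and CDH1 below 20 transcripts. Immune markers summed to 15.9 and 14.4 CPM and endothelial ones to 0.338 and 0.379 CPM. In a bulk sample fewer cells of a type and less RNA per cell cannot be told apart.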

How the data were processed

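RNA of H4 cells carrying opto-PKR was counted with an adaptation of CEL-Seq2, which tags 3′ ends with unique molecular identifiers (UMIs). Per the submitters' processing notes the tools included BWA with build hg19; the sources used here do not name the counting program, the annotation or the use of strand. The authors deposited expected counts (reads, UMIs and transcripts) per gene, and read totals in mapping summaries (other values, per the file headers). The deposited transcripts equal UMIs corrected for collisions among 4096 tags (largest difference 7.39e-10), so genes over 3800 UMIs (38 and 37 at 600 and 720 min) are imprecise. The barcode column 4 was used and the other 95 columns of each table were not. ERCC spike-in rows (0.00596% and 0.00776% of reads) were dropped and counts rounded. Transcripts summed to between 7048135 and 8911644 in the complete tables. The 480 min table stops at NME1-NME2: later genes are missing there, and its CPM use the mean share of counts (51.8%) that the covered rows hold elsewhere.

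CPM values are counts over the total of gene rows; folds have no pseudocount, and intervals are exact binomial (Clopper-Pearson, 95%, scipy 1.17.1), tested on simulated data. They treat corrected counts as plain counts, so for abundant genes they are too narrow. Scaling factors between the libraries came from edgeR 4.0.16 (TMM). With 1 library a side no test was run. Genes were named by 3 rules: the 14 rising and 14 falling genes whose interval bound nearest to 1 lay farthest from it; up to 4 members per list and direction past 1.5-fold with an interval excluding 1, or else the most extreme members; and 14 core ISR genes. Other genes named, including those in the promoter, time-course and early-movement passages, were chosen after their values were seen. Members and the 35 lists were chosen with earlier results of these data known. Promoters are from RefSeq (GRCh38.p14; 72.6% of genes matched by symbol); 8 motifs were searched, of which the NF-kB type was added after values were seen. Alternatives covered scaling, count table, count minimum and added counts. Results of 2 named genes are not reported here.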

Additional observations from a re-analysis of the deposited data

How the results depend on the processing

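No paired analysis was possible because there was 1 library at each time and the labels give no replicate numbers; for the same reason no replicate could be left out. The number of genes past a fold depended on the count minimum. The 101 genes at least 2-fold higher became 196 with 10 or more counts in either library, 47 with 50 or more and 1192 with no minimum. The 150 at least 2-fold lower became 268, 66 and 1056 in the same order, and 236 in read counts. At 1.5-fold the 522 higher genes became 329 with 50 or more counts and 2058 with no minimum, and the 882 lower genes became 2173 with no minimum. Fewer counts widen the intervals, so the low-count genes of these totals are the least certain. The median of early risers less that of all genes was -0.27, and -0.29 both in read counts and with no minimum. TMM scaling raised every log2 ratio by 0.04 and gave 633 higher and 730 lower genes at 1.5-fold, and leaving the genes over 3800 UMIs out of the totals, an alternative chosen after seeing the data, gave 546 and 848. The number of lists with a median above that of all genes was 17 and ranged from 15 to 20. No named gene past 1.5-fold with an interval excluding 1 changed direction under the alternatives run. Of the list medians less that of all genes, 8 changed sign in at least 1 alternative: the strongest earlier falls went from -0.18 to 0.53 with 50 or more counts and the metallothionein list from -0.15 to 0.16 with no minimum, and the others had main values between -0.06 and 0.03. ASNS went from -0.05 to 0.09 in UMI counts, and FGF21 and RPSA, near 0, also changed sign. In all, 28 of 714 values of named genes and 1 of 315 values of lists (ribosomal proteins, in reads) moved by more than their counting interval, and the cause was not tested.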

Other observations

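Other lists give further values of the last step. Among 20 regulators of mRNA decay none was at least 1.5-fold higher and XRN1, the main cytoplasmic 5′ to 3′ exonuclease, fell from 40.8 to 24.0 CPM (fold 0.588, 0.491 to 0.703). An interval below 1 was found in 10 of the 20, against 26.2% of all genes. Of 20 interferon-stimulated genes 2 were at least 1.5-fold higher and 3 lower: IFI6, a mitochondrial protein, rose from 22.9 to 42.1 CPM (fold 1.84, 1.54 to 2.20), while the RNA sensors IFIH1 and DDX58 fell, from 37.5 to 19.3 CPM (fold 0.515, 0.423 to 0.626) and from 10.6 to 6.31 CPM (fold 0.596, 0.414 to 0.849). Immediate early factors were past 1.5-fold in 0 of 15 cases. KLF10, a TGF-beta induced factor, was at 94.5 and 65.3 CPM (fold 0.691, 0.618 to 0.772) and IER3 at 48.3 and 65.2 CPM (fold 1.35, 1.18 to 1.54). DUSP1, a phosphatase that switches off MAP kinases, fell from 29.4 to 16.4 CPM (fold 0.558, 0.449 to 0.692), close to its 14.2 CPM at 0 min.

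PDK1, which restrains pyruvate dehydrogenase, fell from 28.0 to 15.0 CPM (fold 0.536, 0.427 to 0.669), the single gene past 1.5-fold of 24 hypoxia and glycolysis genes. SLC30A1, a zinc exporter, fell from 18.6 to 10.5 CPM (fold 0.564, 0.428 to 0.739). EIF2AK3, the ER-bound eIF2 kinase, fell from 88 to 50 transcripts (fold 0.637, 0.441 to 0.911), and BIRC2, the neighbour of BIRC3 in the inhibitor of apoptosis family, from 243 to 151 CPM (fold 0.622, 0.579 to 0.667). RGS1, a brake on G protein signalling and one of the genes picked earlier from these libraries for its fall, went from 25 to 5 transcripts (fold 0.224, 0.0670 to 0.596). It was the single member of that list with an interval below 1. Of the 7 compared, 3 had an interval above 1, against 17.8% of all genes: DBNDD1 (fold 1.45, 1.17 to 1.80), MARCKSL1 (fold 1.39, 1.29 to 1.49) and CD276 (fold 1.31, 1.08 to 1.58). Genes of the proteasome, nucleolar ribosome biogenesis, the respiratory chain, sterol synthesis and autophagy had no member past 1.5-fold among 30, 24, 28, 23 and 19.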
